A study of Mus musculus with 6 samples.

Results

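The transcription factor NRF2, its inhibitor KEAP1 and 8 antioxidant enzymes were followed in the RNA of BMDMs, macrophages grown from mouse bone marrow. The 10 genes were taken from a fixed list of names, *Nfe2l2* (which encodes NRF2), *Keap1*, *Nqo1*, *Gclm*, *Gclc*, *Txnrd1*, *Srxn1*, *Sod1*, *Sod2* and *Cat*, out of the 36137 genes with a transcript in the files, and all 10 passed the filter on low counts. Cells cultured for 7 days were placed in serum-free medium at 2.1% oxygen for 8 hours, a treatment called hypoxia serum starvation (HSS) that serves as a culture model of ischemia. *Drp1* KO BMDMs came from *LysM*-Cre+/- *Drp1* fl/fl mice and WT BMDMs from *LysM*-Cre+/- *Drp1*+/+ mice, with 3 libraries in each group, called WT 1 to WT 3 and KO 1 to KO 3. Both groups thus carried the Cre that the myeloid *LysM* promoter drives, both underwent HSS, and libraries of untreated cells were not analysed here. Marrow of 2 mice per genotype was pooled for culture, the methods do not say whether each library had its own pool, and p-values therefore measure the spread between these libraries.

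DRP1, encoded by *Dnm1l*, divides mitochondria, and the comparison asks which of the antioxidant genes differ in RNA level when myeloid cells lack it. KEAP1 holds NRF2 in the cytosol and hands it to a CUL3 ubiquitin ligase, so that NRF2 is degraded until oxidants or electrophiles modify KEAP1. NRF2 then enters the nucleus, pairs with a small MAF protein and binds the antioxidant response element of genes for glutathione synthesis, the thioredoxin system and quinone reduction. Because this control acts on the protein, the RNA level of *Nfe2l2* is not a measure of NRF2 activity. The superoxide dismutases and catalase remove superoxide and hydrogen peroxide directly, and in macrophages they act beside the NADPH oxidase that makes superoxide during the respiratory burst.

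The core of the antioxidant response element lay close to the start of 3 of the 10 genes. It was searched as TGACNNNGC on both strands, in the bases before the start of the gene's canonical transcript (GENCODE M39, GRCm39). Within 250 bases it was present in 3 of 10 genes (30.0%), against 10.3% of 15921 protein-coding genes tested. Within 2000 bases it was present in 8 of 10 (80.0%), against 47.1% of the same genes, and *Keap1* and *Cat* had none. Among 29 other NRF2 targets on the list used below, 4 (13.8%) had it within 250 bases and 18 (62.1%) within 2000. The matches nearest to a start are shown because *Txnrd1*, the gene of the 10 with the smallest p in this comparison, has one. They are printed 5′ to 3′ on the strand of the gene with the core in capitals, and each core lies on the opposite strand of its gene:
*Gclm*, 54 to 46 bases before the start, chr3:122039072-122039080, + strand: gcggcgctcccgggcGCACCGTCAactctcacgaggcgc
*Txnrd1*, 65 to 57 bases before the start, chr10:82694948-82694956, + strand: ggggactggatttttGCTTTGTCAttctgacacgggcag
*Sod1*, 95 to 87 bases before the start, chr16:90017313-90017321, + strand: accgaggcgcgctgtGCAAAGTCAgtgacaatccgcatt
A match is a description of the letters in the window, and the libraries hold no measure of binding to it.

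The WT libraries held 24269850 to 28650715 and the *Drp1* KO libraries 23389488 to 32231206 estimated counts, so that 3 counts, taken as the floor, equal 0.0917 to 0.136 CPM (read counts scaled to the size of the library, after TMM normalization). *Dnm1l*, the targeted gene, was at 72.7, 69.9 and 75.1 CPM in WT 1 to WT 3 and at 58.7, 60.7 and 66.3 CPM in KO 1 to KO 3. The groups did not overlap, but the difference did not pass the test (log2 fold change -0.23, SE 0.0921, adjusted p = 0.248), and the floxed exons were not counted apart from the rest of the transcript. At the protein level, the paper reported deletion of DRP1 in *Drp1* KO BMDMs by immunoblot, with *Drp1* fl/fl mice as WT. All 8 macrophage markers were measured, with a summed level of 13400 to 14800 CPM in WT and 12000 to 14400 CPM in *Drp1* KO BMDMs. Most of that sum was *Lyz2*, named here for its size, at 9050 to 9890 CPM in WT and 8170 to 9960 CPM in *Drp1* KO libraries. Of the 8 markers, *Fcgr1* rose (log2 fold change 1.34, adjusted p = 0.000322) and *Csf1r* (-0.52, 0.034) and *Mertk* (-0.52, 0.0236) fell. With 1 library left out *Fcgr1* passed each time, *Csf1r* passed only without KO 1 (0.0208, and 0.0635 to 0.133 for the others), and *Mertk* did not pass without WT 2 (0.101), WT 3 (0.118), KO 2 (0.084) or KO 3 (0.0621). With counts scaled by transcript length *Csf1r* did not pass (-0.30). Marker sums cover tested genes only. Of the 9 neutrophil markers, the 6 tested summed to 6.81 to 21.1 CPM in WT and 20.5 to 48.3 CPM in *Drp1* KO BMDMs. All 6 neutrophil markers tested were higher in *Drp1* KO BMDMs and *Ly6g* was at 0, with 0 of 6 past an adjusted p of 0.05 by edgeR, 2 by DESeq2, 4 with the replicate number as a block and 4 at an unadjusted p under 0.05. Over all 18506 genes these shares were 3.36% by edgeR, 8.8% by DESeq2 (of the 13119 genes it gave an adjusted p), 12% with the block and 16.4% at an unadjusted p under 0.05. *Ngp* (1.32, adjusted p = 0.107, and 0.00264 with the block) and *S100a8* (1.38, adjusted p = 0.122, and 0.00145 with the block) had the smallest p. The other marker sums were low in both groups, at most 2.02 CPM for erythroid genes (with the globins at 0), 4.91 for dendritic cell genes, 3.06 for fibroblast genes and 5.77 for lymphocyte genes, and 0 of their tested genes passed with edgeR or DESeq2 (1, *Zbtb46*, had an unadjusted p under 0.05). Libraries 1 of both groups stood apart from the other 4, as their deviations from the group mean correlated at 0.51 over 12248 genes. The part of these differences in the values below was not tested, and fewer cells of a type cannot be told apart from less RNA per cell.

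Of the 10 genes, 1 fell in *Drp1* KO BMDMs. *Txnrd1* fell 1.5-fold, and the other 9 had lower means that did not pass an adjusted p of 0.05, from -0.44 for *Nqo1* to -0.06 for *Srxn1* on the log2 scale. Of all 18506 genes tested, 621 passed (3.36%), 424 higher and 197 lower. By the criteria of the study, which set a minimum fold change and take p without adjustment, 3 of the 10 were lower (*Txnrd1*, *Gclc* and *Nqo1*) and 0 higher, against 5.48% of all genes called lower and 12.7% called in either direction. The groups of libraries did not overlap in 3 of 10 (*Txnrd1*, *Gclc* and *Keap1*), against 21.9% of all genes. The median log2 fold change was -0.24 over the 10 genes and 0.00 over all genes tested.

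**Figure D1:**
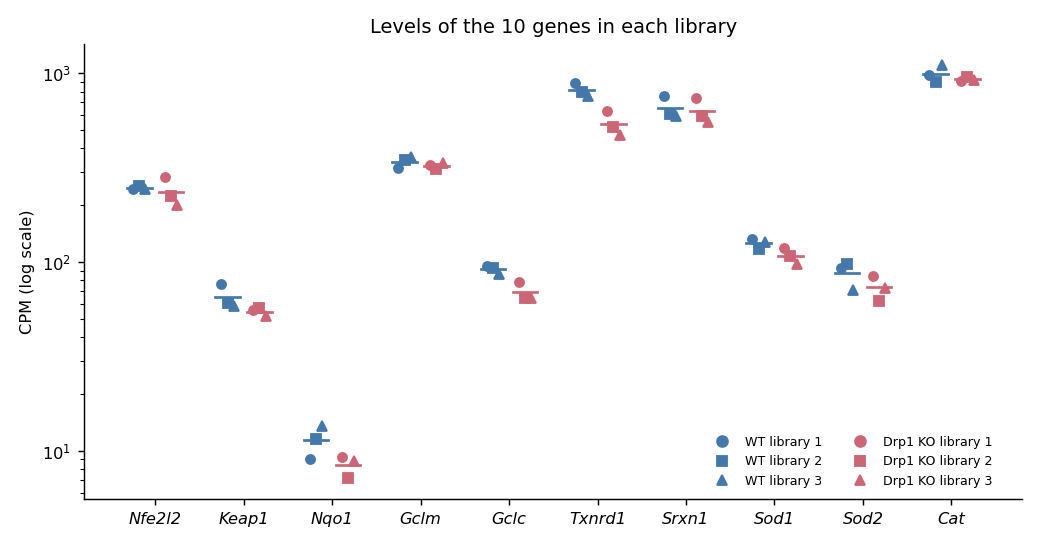
Level of each of the 10 genes in every library, in CPM on a log axis. Points are single libraries (blue, WT; red, *Drp1* KO; circle, square and triangle, libraries 1, 2 and 3) and bars are group means; the 3 *Txnrd1* points of *Drp1* KO BMDMs, 473 to 631 CPM, all lie below the WT points at 758 to 889 CPM.

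**Figure D2:**
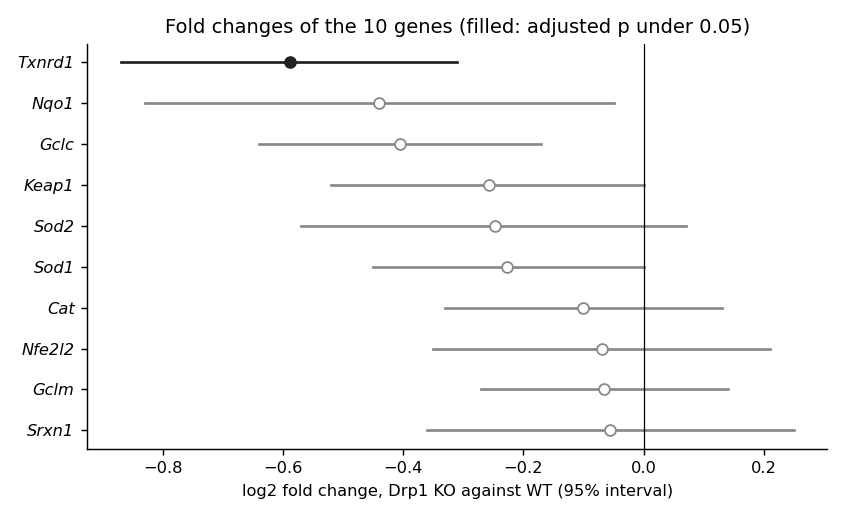
Log2 fold change of each gene, *Drp1* KO against WT, from edgeR with its 95% interval, in order of size. All 10 estimates lie left of 0, and *Txnrd1* (filled) is the gene with an adjusted p under 0.05.

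The regulators did not pass the test. *Nfe2l2* (ENSMUSG00000015839, chr2:75504739-75534985, - strand) encodes NRF2 itself. It was at 243, 254 and 243 CPM in WT 1 to WT 3 and at 283, 223 and 201 CPM in KO 1 to KO 3. The *Drp1* KO libraries lay on both sides of the WT libraries, with library 1 the highest of all 6 and library 3 the lowest. The means were 247 ± 6.55 and 235 ± 42.3 CPM (SD, n = 3 each), and the log2 fold change was -0.07 (SE 0.125, 95% interval -0.35 to 0.21, adjusted p = 0.868). Without KO 3 it was 0.04, and without KO 1 it was -0.23 (adjusted p = 0.229).

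*Keap1* (ENSMUSG00000003308, chr9:21141026-21150679, - strand) encodes the adaptor that marks NRF2 for degradation. Its level was 76.5, 60.6 and 58.7 CPM in WT libraries and 55.4, 56.7 and 51.6 CPM in *Drp1* KO libraries. WT 1 was the highest, and the other WT libraries lay just above the *Drp1* KO libraries without overlapping them. The log2 fold change was -0.26 (SE 0.117, 95% interval -0.52 to 0.00, adjusted p = 0.31), and without WT 1 it was -0.13 (adjusted p = 0.535). The ratio of *Keap1* to *Nfe2l2* within a library, from TPM (a kallisto level per transcript length), was 0.215, 0.158 and 0.154 in WT and 0.118, 0.178 and 0.166 in *Drp1* KO libraries. The ratios overlapped (log2 difference -0.20, two-sided exact permutation test, p = 0.6, adjusted p = 0.6 over 3 ratios, where 3 against 3 libraries cannot go below 0.1).

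*Nqo1* (ENSMUSG00000003849, chr8:108113835-108129934, - strand) encodes the quinone reductase often used as a readout of NRF2. It was at 9.01, 11.5 and 13.5 CPM in WT libraries and 9.26, 7.15 and 8.8 CPM in *Drp1* KO libraries. WT 1 lay within the range of the *Drp1* KO libraries, and the other WT libraries lay above it. The log2 fold change was -0.44 (SE 0.177, 95% interval -0.83 to -0.05, unadjusted p = 0.0315, adjusted p = 0.245). With 1 library left out it ran from -0.583 without WT 1 (adjusted p = 0.0893) to -0.305 without WT 3 (adjusted p = 0.603). It passed in 1 of 14 alternatives, the fit without libraries 1 of both groups, which was added after seeing the data. There it was -0.66 with an adjusted p of 0.0283, and 10.5% of all genes passed.

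The catalytic subunit of the enzyme that starts glutathione synthesis was lower in all 3 *Drp1* KO libraries without passing the adjusted test, and its partner subunit overlapped between the groups. Glutamate-cysteine ligase makes the first and rate-limiting step from a catalytic subunit, *Gclc* (ENSMUSG00000032350, chr9:77661797-77701770, + strand), and a modifier subunit, *Gclm* (ENSMUSG00000028124, chr3:122039126-122065061, + strand), which lowers the sensitivity of the enzyme to feedback by glutathione. *Gclc* was at 95.3, 93.2 and 85.9 CPM in WT libraries and 78.7, 64.4 and 64.3 CPM in *Drp1* KO libraries. The groups did not overlap, and KO 1 was the nearest to WT. The means were 91.4 ± 4.95 and 69.1 ± 8.27 CPM, and the log2 fold change was -0.41 (SE 0.107, 95% interval -0.64 to -0.17), with an unadjusted p of 0.00357 and an adjusted p of 0.0764. The adjusted p was below 0.05 with the replicate number as a block (0.00701), with DESeq2 (0.0206) and without KO 1 (0.0197), and 0.26 without KO 2.

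*Gclm*, with the core of the element shown above at 54 bases before its start, was at 314, 345 and 358 CPM in WT libraries and 325, 311 and 336 CPM in *Drp1* KO libraries. The groups overlapped, and the log2 fold change was -0.07 (SE 0.0933, 95% interval -0.27 to 0.14, adjusted p = 0.82). With counts scaled by transcript length it turned to 0.22 (adjusted p = 0.338). Within a library, the ratio of *Gclm* to *Gclc* TPM was 4.57, 4.96 and 5.87 in WT and 6.83, 8.34 and 8.58 in *Drp1* KO BMDMs. All 3 *Drp1* KO ratios were above all 3 WT ratios (log2 difference 0.63, two-sided exact permutation test, p = 0.1, the smallest the design allows, adjusted p = 0.3). From estimated counts the ratios were 3.29, 3.71 and 4.17 in WT and 4.13, 4.83 and 5.22 in *Drp1* KO libraries, so that WT 3 and KO 1 overlapped, and the log2 difference was 0.34.

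The share of the *Gclm* TPM assigned to its most abundant transcript did not overlap between the groups. Gclm-203, a transcript of 5 exons and 1088 bases whose annotated start is incomplete, shares 3 whole exons with Gclm-201, the full-length transcript of 7 exons. Gclm-203 took 54.1%, 52.9% and 55.7% of the *Gclm* TPM in WT libraries and 66.6%, 67.4% and 62.4% in *Drp1* KO libraries. The shares did not overlap and differed by 11.2 percentage points (exact permutation test, p = 0.1, adjusted p = 0.3 over 9 genes with more than 1 transcript). In a fit across 62316 transcripts, of which 0.334% passed, neither Gclm-203 (58.8 ± 5.37 against 83.6 ± 3.28 CPM, log2 fold change 0.51, adjusted p = 0.14) nor Gclm-201 (275 ± 14.2 against 235 ± 14.8 CPM, -0.23, adjusted p = 0.465) passed an adjusted p of 0.05.

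*Txnrd1* (ENSMUSG00000020250, chr10:82669785-82733546, + strand) encodes the cytosolic thioredoxin reductase, a selenoprotein that uses NADPH to keep thioredoxin reduced. Its level was 889, 793 and 758 CPM in WT 1 to WT 3 and 631, 519 and 473 CPM in KO 1 to KO 3. Every *Drp1* KO library was below every WT library, and within each group library 1 was the highest. The means were 813 ± 68.1 and 541 ± 81.3 CPM (SD, n = 3 each), and *Txnrd1* fell by 0.59 on the log2 scale (SE 0.124, 95% interval -0.87 to -0.31, edgeR quasi-likelihood test, adjusted p = 0.0317). The adjusted p was 0.000521 with the replicate number as a block, 0.0078 without KO 1 and 0.00213 without libraries 1 of both groups. It was above 0.05 without WT 1 (0.0591), WT 2 (0.127), WT 3 (0.0856), KO 2 (0.136) or KO 3 (0.0997), with log2 fold changes of -0.65 to -0.50 in these 5 fits. The core of the element in the window shown above lies 65 bases before the start of Txnrd1-201.

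The count of *Txnrd1* was carried by Txnrd1-201 and Txnrd1-208, which differ before the coding sequence. Both have 1497 coding bases and share 13 whole exons, and Txnrd1-208 adds an exon of 107 bases, chr10:82696358-82696464, between its first exon and the coding exons. Txnrd1-208 was at 275, 248 and 226 CPM in WT libraries and at 113, 97.9 and 72.9 CPM in *Drp1* KO libraries. All 3 *Drp1* KO libraries were below all 3 WT libraries, and Txnrd1-208 fell by 1.40 on the log2 scale (SE 0.174, adjusted p = 0.0398 over all transcripts). With the replicate number as a block, its adjusted p was 0.117, and with 1 library left out it ran from 0.0458 to 0.154 with log2 fold changes of -1.55 to -1.24. Txnrd1-201 was at 577, 498 and 495 CPM in WT and 499, 391 and 381 CPM in *Drp1* KO libraries, and these ranges overlapped (log2 fold change -0.30, SE 0.133, adjusted p = 0.502). As a share of the *Txnrd1* TPM, Txnrd1-201 was at 56.3%, 55.2% and 57.8% in WT and 72.6%, 69.6% and 74.8% in *Drp1* KO libraries. The shares differed by 15.9 percentage points with no overlap (exact permutation test, p = 0.1, adjusted p = 0.3). Txnrd1-208 has 2297 bases in the files and 3404 in the annotation used here, so the sequence that set it apart in the authors' index may differ from the exon named.

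**Figure D3:**
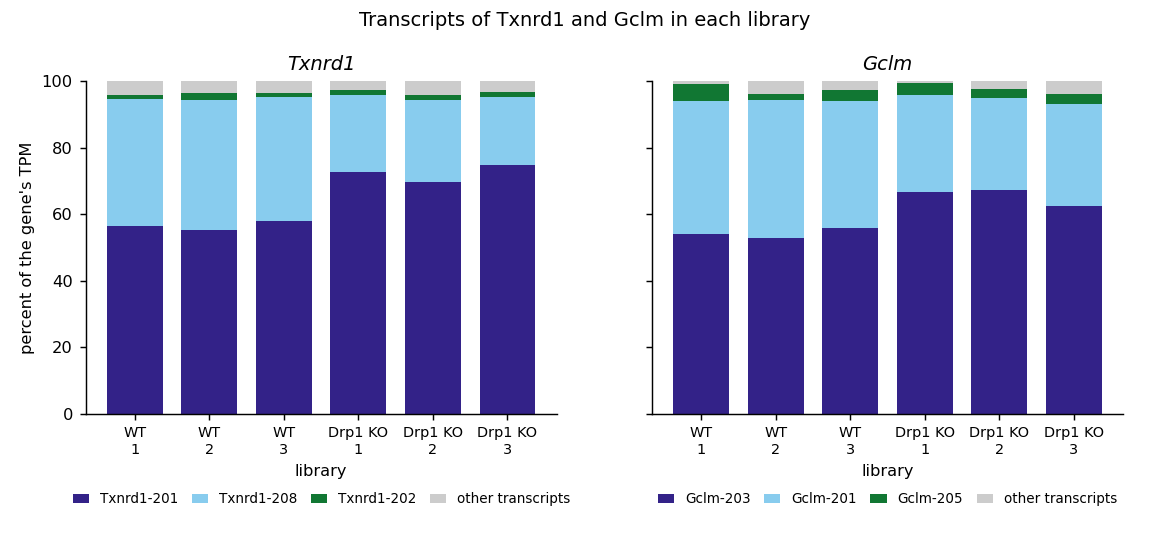
Share of each gene's TPM, in percent, assigned to its transcripts in every library, for *Txnrd1* (left) and *Gclm* (right). Stacked bars give the 3 most abundant transcripts and the others together; Txnrd1-201 takes 55.2% to 57.8% in WT and 69.6% to 74.8% in KO 1 to KO 3, and Gclm-203 takes 52.9% to 55.7% and 62.4% to 67.4%.

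*Washc2*, *Bin1* and *2310033P09Rik* had the profiles most like that of *Txnrd1* over the 6 libraries, out of 7953 genes averaging 10 CPM or more. Their root mean square distances from the *Txnrd1* profile were 0.0346, 0.0406 and 0.0504, in log2 CPM centred on each gene's own mean. Their log2 fold changes were -0.52, -0.55 and -0.56 (SE 0.126, 0.117 and 0.131). None of these 3 genes is on the lists of antioxidant genes used here.

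*Srxn1* (ENSMUSG00000032802, chr2:151947436-151957687, + strand) encodes sulfiredoxin, which restores peroxiredoxins that peroxide has overoxidized. It was at 759, 608 and 591 CPM in WT libraries and 736, 597 and 549 CPM in *Drp1* KO libraries. The groups overlapped and library 1 was the highest in each. The log2 fold change was -0.06 (SE 0.138, 95% interval -0.36 to 0.25, adjusted p = 0.913), and it turned to 0.06 without WT 1 and to 0.04 without KO 3. The means were 653 ± 92.2 and 627 ± 97.3 CPM.

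The enzymes that act on superoxide and hydrogen peroxide had small differences that did not pass the test. *Sod1* (ENSMUSG00000022982, chr16:90017408-90027657, + strand), the copper and zinc dismutase of the cytosol, was at 133, 117 and 128 CPM in WT libraries and 118, 107 and 98 CPM in *Drp1* KO libraries. The ranges overlapped through WT 2 and KO 1, and the log2 fold change was -0.23 (SE 0.101, unadjusted p = 0.0483, adjusted p = 0.3). *Sod2* (ENSMUSG00000006818, chr17:13224095-13259591, + strand), the manganese dismutase of the mitochondrial matrix, was at 92.5, 97.8 and 71.2 CPM in WT and 84.6, 62.4 and 73.2 CPM in *Drp1* KO libraries. WT 3 lay within the *Drp1* KO range, and the log2 fold change was -0.25 (SE 0.144, 95% interval -0.57 to 0.07, adjusted p = 0.453). It ran from -0.39 without WT 3 to -0.14 without KO 2, and was -0.08 with counts scaled by transcript length. The ratio of *Sod2* to *Sod1* TPM was 0.124, 0.146 and 0.0921 in WT and 0.169, 0.116 and 0.124 in *Drp1* KO libraries, and the groups overlapped (log2 difference 0.18, exact permutation test, p = 0.6, adjusted p = 0.6).

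*Cat* (ENSMUSG00000027187, chr2:103284194-103316185, - strand) encodes catalase, the peroxisomal enzyme that splits hydrogen peroxide. It was at 977, 901 and 1110 CPM in WT libraries and 914, 950 and 920 CPM in *Drp1* KO libraries. The *Drp1* KO values lay within the WT range, at 928 ± 19.2 against 995 ± 105 CPM, and the log2 fold change was -0.10 (SE 0.104, 95% interval -0.33 to 0.13, adjusted p = 0.721). It was -0.18 without WT 2 and -0.03 without WT 3.

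Per transcript length, *Cat* was the most abundant of the 10 genes in both groups, at 569 ± 84.7 TPM in WT and 497 ± 22.9 TPM in *Drp1* KO BMDMs. *Txnrd1* followed in WT at 401 ± 19.3 TPM, then *Sod1* (366), *Srxn1* (316), *Gclm* (207), *Nfe2l2* (159), *Sod2* (43.6), *Gclc* (40.2), *Keap1* (27.9) and *Nqo1* (12.4). Of the neighbours in this order, *Txnrd1* and *Sod1*, *Sod1* and *Srxn1*, and *Sod2* and *Gclc* overlapped between libraries. In *Drp1* KO BMDMs *Txnrd1* stood in position 4, at 240 ± 28.4 TPM, behind *Srxn1* (284) and *Sod1* (283), and it overlapped with *Sod1* above it and *Gclm* (227) below it. From *Gclm* down the order was that of WT, with *Nfe2l2* at 143, *Sod2* at 38.8, *Gclc* at 28.9, *Keap1* at 21.6 and *Nqo1* at 8.55 TPM.

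Beyond the 10 genes, 99 genes of the same pathways were listed by function and 94 could be tested, of which 8 passed an adjusted p of 0.05, 2 higher and 6 lower (3.36% of all genes passed). The glutathione, thioredoxin and NADPH lists each share genes with the list of other NRF2 targets, so their counts and medians are not independent of it. A shared gene is counted once in these totals. On the list of 30 other NRF2 targets, 29 were tested and 4 fell. These were *Gsta3*, a glutathione transferase (52.8 ± 6.79 against 31.5 ± 2.25 CPM, 1.68-fold lower, adjusted p = 0.00772), *Blvrb*, a biliverdin reductase (150 ± 6.87 against 92.1 ± 10.9 CPM, 1.63-fold lower, adjusted p = 0.00635), *Abcc1*, an exporter of glutathione conjugates (333 ± 21.3 against 234 ± 4.42 CPM, 1.42-fold lower, adjusted p = 0.0153), and *Ephx1*, the microsomal epoxide hydrolase (56.7 ± 4.14 against 36.2 ± 6.86 CPM, 1.57-fold lower, adjusted p = 0.0323). *Gsta3* and *Blvrb* passed with each library left out in turn. *Abcc1* did not pass without WT 2 (0.0994), WT 3 (0.0758), KO 2 (0.0712) or KO 3 (0.0621), and *Ephx1* passed with 1 library left out only without KO 1 (0.00831, and 0.064 to 0.109 for the others). *Ephx1* also did not pass with counts scaled by transcript length (-0.68). Of the 29, 23 had a lower and 6 a higher mean in *Drp1* KO BMDMs, against 9141 lower of all 18506 genes. The 23 include a gene with 33 counts and a gene with 16 counts in all libraries together, near the floor. By the criteria of the study 10 of the 29 were lower and 0 higher (5.48% of all genes were called lower by these), and the median log2 fold change was -0.22. With the replicate number as a block, 11 of the 29 passed, against 12% of all genes in the same fit. The count was 8 with DESeq2 (8.8% of all genes), 8 with no filter beyond 1 count (4.43%), 8 without KO 1 (4.96%) and 14 without libraries 1 of both groups (10.5%). It was 2 without WT 2 (1%), WT 3 (1.2%), KO 2 (1.49%) or KO 3 (1.93%). *Hmox1*, the heme oxygenase gene and a target that NRF2 shares with BACH1, was named after its values were seen. It was at 4000, 3660 and 3620 CPM in WT and 3350, 2070 and 2340 CPM in *Drp1* KO libraries, without overlap (log2 fold change -0.54, adjusted p = 0.123, and 0.00461 with the block).

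**Figure D4:**
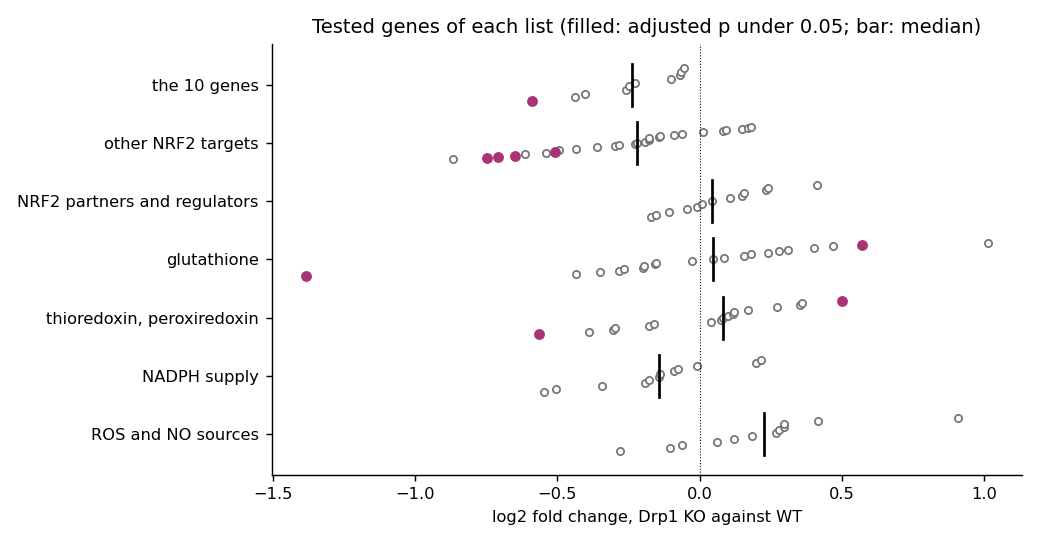
Log2 fold change, *Drp1* KO against WT, of each tested gene of the 10 (top) and of 6 pathway lists. Filled points have an adjusted p under 0.05 and bars are medians; the medians of the 10 genes (-0.24), of the other NRF2 targets (-0.22) and of the NADPH supply genes (-0.14) lie left of 0, and those of the partners (0.04), glutathione (0.04), thioredoxin (0.08) and ROS and NO source (0.22) genes lie right of it.

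The 13 partners and regulators of NRF2, among them the small MAF genes, *Bach1*, *Cul3* and *Sqstm1*, gave a median of 0.04 on the log2 scale. With edgeR 0 of 13 passed, as with DESeq2, and 2 had an unadjusted p under 0.05, against 16.4% of all genes. *Bach2*, a repressor that competes for the same element (0.41, adjusted p = 0.271), and *Rbx1*, the RING subunit of the CUL3 ligase (0.24, adjusted p = 0.286), had the smallest p. On the glutathione list, 2 of 21 genes tested passed (3.36% of all genes) and the median was 0.04. *Glrx*, a glutaredoxin that removes glutathione from proteins, rose 1.48-fold (49.2 ± 7.96 to 72.9 ± 8.08 CPM, adjusted p = 0.0468), and *Ggt5*, a glutamyl transferase that cleaves glutathione conjugates, fell 2.61-fold (3.15 ± 0.563 to 1.19 ± 0.168 CPM, adjusted p = 0.0153). With 1 library left out, *Glrx* passed only without WT 1 (0.0121, and 0.0678 to 0.252 for the others), and *Ggt5* did not pass without WT 2 (0.0579), WT 3 (0.054), KO 2 (0.0621) or KO 3 (0.0511). With all libraries kept, *Glrx* did not pass with median-of-ratios size factors or with counts scaled by transcript length.

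The thioredoxin and peroxiredoxin list, the partners of *Txnrd1*, had 2 of 17 genes past the test (3.36% of all genes) and a median log2 fold change of 0.08. *Prdx4*, the peroxiredoxin of the endoplasmic reticulum, rose 1.42-fold (14.1 ± 0.496 to 20 ± 1.4 CPM, adjusted p = 0.0412), and *Prdx5*, found in mitochondria and peroxisomes, fell 1.48-fold (102 ± 1.62 to 68.9 ± 11.9 CPM, adjusted p = 0.0334). *Prdx4* lost the call with each single library left out (adjusted p 0.0576 to 0.208) and with counts scaled by transcript length (0.48 on the log2 scale), and *Prdx5* did so without WT 2 (0.145), WT 3 (0.109), KO 2 (0.154) or KO 3 (0.107). *Txn1*, the thioredoxin that *Txnrd1* reduces, was named after its values were seen and had a log2 fold change of -0.30 (adjusted p = 0.339, and 0.0226 with the block). With the block, 6 of the 17 genes of this list and 7 of the 21 of the glutathione list passed, against 12% of all genes.

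Of 12 genes that supply NADPH, the reductant *Txnrd1* draws on, 0 passed with edgeR, 1 with DESeq2 and 3 with the block, 3 had an unadjusted p under 0.05, and the median log2 fold change was -0.14. Of all genes, 8.8% passed with DESeq2, 12% with the block and 16.4% at an unadjusted p under 0.05. *Me1*, the cytosolic malic enzyme, was at 16.8, 16.9 and 17.4 CPM in WT and 11.1, 11.4 and 13.4 CPM in *Drp1* KO libraries, without overlap (-0.51, adjusted p = 0.0545, and 0.00852 with the block). It is also on the list of other NRF2 targets. *Idh1*, the cytosolic isocitrate dehydrogenase, had a log2 fold change of -0.34 (adjusted p = 0.177, and 0.00942 with the block). The copper chaperone of *Sod1*, *Ccs*, had -0.13 (adjusted p = 0.803), and the extracellular dismutase *Sod3* had 6 counts in all libraries together and was not tested.

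Among 12 tested genes that make reactive oxygen or nitrogen species, 0 passed with edgeR or DESeq2, 3 passed with the block (12% of all genes), and the median log2 fold change was 0.22. *Ncf4*, a cytosolic subunit of the phagocyte NADPH oxidase, was at 56.6, 55.5 and 48.6 CPM in WT and 65.5, 63.8 and 65.6 CPM in *Drp1* KO libraries (0.28, adjusted p = 0.167, and 0.0453 with the block). The groups did not overlap, and the unadjusted p was under 0.05.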

How the data were processed

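RNA of BMDMs, 3 WT and 3 *Drp1* KO libraries, after 8 hours of HSS was sequenced by the authors from poly(A) libraries with paired-end reads. They quantified each library with kallisto 0.46.1 (submitters' processing notes) on the Ensembl GRCm39 cDNA sequences and deposited estimated counts and TPM values, covering 116873 transcripts. Whether bias correction was used is not given in the sources used here, and effective length exceeded length in 17986 transcripts. The sources differ on the RNA extraction kit and the oxygen level, of which the label's is given.

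Transcripts were matched by identifier to GENCODE M39 (116159, 99.4%), with 0.542% to 0.575% of each library's counts on the others, left out. The annotation held the same version of 26 of the 41 transcripts of the 10 genes. Estimated counts were summed per gene and rounded. Genes with at least 10 counts in total were tested with edgeR 4.0.16 in R 4.3.3 (TMM, quasi-likelihood test, no covariate, Benjamini-Hochberg adjustment over 18506 genes). The SE of a log2 fold change is its size over the root of the test's F. Levels are CPM on TMM-normalized library sizes. Deposited TPM values were summed per gene for the order of levels, and gave within-library ratios and transcript shares, compared with two-sided exact permutation tests in scipy 1.17.1. Transcripts with at least 10 counts were fitted in the same way. The test was checked on simulated counts first. The 3-count floor covers counting error only, since reads carried no stated molecular identifiers.

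The 10 genes and all lists were chosen with earlier results of these data known. Genes were named by rule: the 10 genes, *Dnm1l*, up to 4 called genes per direction in each list or otherwise its 2 with the smallest p (given for the macrophage and neutrophil markers and the pathway lists), and the 3 genes with the profile nearest to that of the gene with the smallest p. A gene that this rule picks from the pathway lists is not reported here. The groups share replicate numbers 1 to 3 in the labels. Over 12248 genes averaging 1 CPM or more, same-numbered libraries correlated at 0.51, 0.204 and 0.298 in their deviations, and WT 2 with KO 3 at 0.326. The main fit had no block. The block was an alternative, and the shared numbers and these correlations are its only ground. No 2 libraries agreed within sampling noise (chi-square per degree of freedom at least 10.4). Alternatives were DESeq2 1.42.0, other scalings and filters, length-scaled counts, the replicate block and leaving out each library. Leaving out libraries 1 of both groups and the transcript fit were added after seeing the data.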

Additional observations from a re-analysis of the deposited data

How the results depend on the processing

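Over 14 alternatives, the log2 fold changes of *Keap1*, *Nqo1*, *Gclc*, *Txnrd1*, *Sod1*, *Sod2* and *Cat* kept their sign. *Txnrd1* ran from -0.725 to -0.497 and passed an adjusted p of 0.05 in 9 of 14. The same range held with 1 library left out, where 5 of 6 fits lost the call. *Gclc* passed with DESeq2 (-0.416), library size only (-0.42), no filter beyond 1 count (-0.413), the replicate block (-0.409) and without libraries 1 of both groups (-0.478), and ran from -0.517 to -0.351 with 1 library left out. *Nqo1* passed without libraries 1 of both groups (-0.655), and ran from -0.583 to -0.305 with 1 library left out. The sign turned for *Gclm* with length-scaled counts (0.223), and with 1 library left out *Nfe2l2* ran from -0.231 to 0.036 (-0.234 without libraries 1 of both groups) and *Srxn1* from -0.199 to 0.063. Among the ratios and shares, the log2 ratio of *Sod2* to *Sod1* was -0.015 from estimated counts and ran from -0.001 to 0.332 with 1 library left out. The top transcript shares of *Gclc*, *Srxn1* and *Cat* also turned with 1 library left out, and ran from -1.197 to 0.279, from -0.192 to 0.535 and from -0.063 to 0.104 percentage points. The cause of these changes was not tested.

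The number of the 10 genes past an adjusted p of 0.05 was 1, and 2 with DESeq2, library size only, no filter beyond 1 count or the replicate block, 3 without libraries 1 of both groups, and 0 to 2 with 1 library left out (0 without each of 5 libraries, 2 without *Drp1* KO library 1). By the criteria of the study it was 3, and 2 to 4 over all alternatives. Of all genes, 621 passed, 1155 with DESeq2, 1065 with no filter beyond 1 count, 2212 with the block, 1880 without libraries 1 of both groups and 181 (without WT library 2) to 904 (without *Drp1* KO library 1) with 1 library left out. Of the pathway list genes, 8 passed, 13 with no filter beyond 1 count, 5 with length-scaled counts, 27 with the block, 28 without libraries 1 of both groups and 2 to 11 with 1 library left out. The block changed no other call among the 10 genes. With 3 libraries a group, exact tests of ratios and shares cannot go below 0.1.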
